A study of Homo sapiens with 30 samples.

Results

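Divergent promoter transcripts are noncoding RNAs that start near the promoter of a named gene and run away from it, and the nomenclature gives them that gene's symbol with the ending -DT. Of 60483 gene records in the expression files, 577 carried such a symbol, 546 of these had any count, and the 104 with a mean expected count of 50 or more over 30 libraries are described here. They were thus chosen by their mean count, so their abundance is a description. The last genes left out were ARNT2-DT (mean count 48.1), MAP3K9-DT (48.9), ZNF747-DT (49.1), PPM1L-DT (49.2) and MAGOH-DT (49.9), and the first taken in were ZNF582-DT (50.7), SEPTIN9-DT (51.5), NUDT19-DT (52.0), MVP-DT (52.8) and USP46-DT (54.3). In 24 of the 104 the mean of at least 1 group was under 50, with 25.3 as the lowest group mean, and no library had a count of 0 for any of them.

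The libraries came from Panc-1 tumoroids, 3D cultures of a wild-type epithelial line from a human pancreatic ductal adenocarcinoma, in 10 groups of 3 libraries that the study describes as parallel biological replicates. In hybrid tumoroids the cancer cells were mixed with DSLBs, oil droplets that carry a supported lipid bilayer and serve as synthetic cells. The DSLBs of 7 groups presented PD-1 and 1 second ligand, which was TIGIT, LAG3, ICOS, CTLA4, CD40L, CD27 or CD2, those of the PD-1 group presented PD-1 alone, plain DSLBs carried no protein, and DSLB-free tumoroids had no synthetic cells. The comparisons with PD-1 hybrids ask what a second ligand adds, the comparison of PD-1 with plain DSLB hybrids asks what PD-1 adds over no protein, and that of plain DSLB hybrids with DSLB-free tumoroids asks what the droplets add. No group carried a protein without PD-1. An effect of PD-1 thus cannot be told apart from that of any tagged protein on the droplets. All groups share the limits of this model, which are a single cell line, recombinant ligand ectodomains held by a polyhistidine tag, no living immune cell, and 100000 cells per culture with 150 ng of total RNA per library.

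Many promoters of human genes are transcribed in both directions by RNA polymerase II. The RNA made upstream usually ends early and is degraded in the nucleus by the exosome with its adaptor complexes, while splicing signals favour a long product in the coding direction. Those upstream transcripts that are spliced or stable enough to accumulate are annotated as -DT genes, and for most of them no function is established.

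All 104 members are annotated as lncRNAs on the strand opposite to the gene they are named after. By GENCODE starts, the start of the member lay upstream of the start of that gene for 98 of them, in 84 cases within 500 bp, with a median distance of 147 bp (quartiles 102.5 and 287.25 bp). The starts of the other 6, among them MIOS-DT, SEPTIN9-DT and TMED2-DT, lay downstream, inside the named gene. In 5 members, among them C2orf74-DT, GARS1-DT and PRKACB-DT, the start was more than 10000 bp from that of their gene. A single exon made up 26 members. Exon bases were shared with the named gene in 30 members and with any annotated gene in 51, and the other 53 shared none. The libraries were directional, but whether counting used the strand is not given in the sources used here. Reads of these 51 members cannot be told apart with certainty from those of the gene they overlap.

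RefSeq promoter windows on GRCh38.p14, from 250 bases before to 50 after a start, matched 84 of the 104 members and 92 of the named genes. The median GC content was 69.0% for the members, 68.67% for the named genes and 58.33% over all 27305 promoters, and the median number of CpG dinucleotides was 31, 31.5 and 14. The letters GGGCGG, the core of an SP1 site, were found on either strand in 76.19% of the member windows, 75% of those of the named genes and 44.59% of all promoters. For CCGGAAG, the core of an ETS site, the shares were 28.57%, 31.52% and 10.67%, for CCAAT, bound by NF-Y, 38.1%, 38.04% and 35.7%, and for TATAAA 3.57%, 6.52% and 11.95%. The cAMP response element TGACGTCA was in 1.19%, 1.09% and 1.98% of windows. A match is a description of the letters, and no match says only that these letters are not in this window. Members and named genes face each other across the same stretch of DNA, so their windows often hold the same bases.

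The windows of 4 members named in the results below are printed as a description: PAXIP1-DT, CAPN10-DT and TMED2-DT were higher with CD2 and with CD27 beside PD-1, and INSIG1-DT had the largest rise with PD-1 over plain DSLBs. Each is written 5′ to 3′ along the strand of the member, with the last 50 bases from its RefSeq start on, and capitals mark matches to the letters above on either strand. The window of PAXIP1-DT is chr7:155003183-155003482 on the plus strand (GC 79.67%, 38 CpG) and holds GGGCGG at position 240 and, on the other strand, at 11. That of CAPN10-DT is chr2:240586267-240586566 on the minus strand (70.0%, 32 CpG), with CCGGAAG on the other strand at 5 and 243 and GGGCGG at 12. That of TMED2-DT is chr12:123584278-123584577 on the minus strand (65.33%, 28 CpG), with GGGCGG on the other strand at 9 and 46, CCAAT on the other strand at 95, CCGGAAG at 267, and the start of TMED2 at position 26, so that this RefSeq start, unlike the GENCODE one, lies upstream of TMED2. That of INSIG1-DT is chr7:155297609-155297908 on the minus strand (78.67%, 49 CpG), with 5 matches to the SP1 letters, of which a pair share 1 base, a TATA match on the other strand at 53, an NF-Y match at 197, and the start of INSIG1 at position 31.
PAXIP1-DT: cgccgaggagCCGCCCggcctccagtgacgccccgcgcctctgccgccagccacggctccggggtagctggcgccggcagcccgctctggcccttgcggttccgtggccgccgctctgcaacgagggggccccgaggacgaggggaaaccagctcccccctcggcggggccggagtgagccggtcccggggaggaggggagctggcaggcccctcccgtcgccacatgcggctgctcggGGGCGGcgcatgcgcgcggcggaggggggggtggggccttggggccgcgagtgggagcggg
CAPN10-DT: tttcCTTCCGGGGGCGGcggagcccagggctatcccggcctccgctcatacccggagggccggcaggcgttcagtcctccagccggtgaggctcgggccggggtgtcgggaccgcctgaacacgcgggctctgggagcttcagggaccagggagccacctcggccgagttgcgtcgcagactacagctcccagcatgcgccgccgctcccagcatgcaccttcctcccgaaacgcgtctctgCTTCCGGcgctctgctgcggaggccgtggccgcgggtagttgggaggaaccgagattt
TMED2-DT: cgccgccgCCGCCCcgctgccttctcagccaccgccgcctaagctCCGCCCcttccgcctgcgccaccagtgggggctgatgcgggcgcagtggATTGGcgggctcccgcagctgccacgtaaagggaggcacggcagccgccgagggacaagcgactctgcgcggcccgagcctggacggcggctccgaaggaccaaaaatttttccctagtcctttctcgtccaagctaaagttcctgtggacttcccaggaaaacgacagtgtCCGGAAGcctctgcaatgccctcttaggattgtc
INSIG1-DT: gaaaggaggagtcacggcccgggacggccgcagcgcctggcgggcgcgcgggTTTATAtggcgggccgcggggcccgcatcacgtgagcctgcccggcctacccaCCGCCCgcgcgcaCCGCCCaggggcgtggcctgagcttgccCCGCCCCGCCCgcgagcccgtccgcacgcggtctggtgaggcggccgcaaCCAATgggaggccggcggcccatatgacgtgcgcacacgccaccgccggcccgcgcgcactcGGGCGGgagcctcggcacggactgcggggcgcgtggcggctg
All 4 windows hold the GGGCGG letters, as did 76.19% of the member windows, and the other matches differ between them. All 4 also hold more CpG dinucleotides than the median of all promoters. Against the member median of 31 CpG, TMED2-DT was below with 28 and the others were above.

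Summed expected counts per library were 21.9 to 60.5 M. The epithelial markers KRT8 (2428 to 3465 TPM), KRT18 (1103 to 1765 TPM) and KRT19 (759 to 1717 TPM) were high in all 30 libraries. KRT7 was at 7.94 to 16.4 TPM. VIM, the fifth gene on the marker list for this line, was at 2128 to 2983 TPM. These 5 genes summed to 8417 to 9272 TPM in the 8 groups with PD-1. In plain DSLB hybrids and DSLB-free tumoroids the sum was 6588 to 7543 TPM. The defining T cell gene CD3E was listed at 0 in all 30 libraries, and the 4 T cell markers summed to at most 0.33 TPM. Of the 4 fibroblast markers, only COL1A1 stood above 0.8 TPM, and their sum was 131 to 250 TPM in the 8 groups with PD-1 and 300 to 403 TPM in plain DSLB hybrids and DSLB-free tumoroids. PD-1/LAG3 replicate 3, DSLB-free replicate 2, PD-1 replicate 1 and PD-1/CTLA4 replicate 2 stood apart from the other replicates of their groups. Several counts of calls and some fold changes are also given without these 4. Medians, group sums and counts of groups without overlap are given with all libraries only. By a chi-square per gene, larger for less alike libraries, PD-1/CD40L replicate 3 differed from replicates 1 and 2 at 24.3 and 15.2. Those differed from each other at 6.41. The PD-1/CD2 libraries all differed from one another, at 28.2 to 36.9. The fits without 4 libraries kept the PD-1/CD40L and PD-1/CD2 libraries.

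The members were expressed at low to moderate levels. Mean levels over all libraries were 0.288 to 33.9 TPM with a median of 3.74 TPM. Of the 104, 14 reached 10 TPM, 82 lay between 1 and 10 TPM and 8 were under 1 TPM. The most abundant was GARS1-DT (33.9 TPM), named after glycyl-tRNA synthetase, followed by C2orf74-DT (26.6 TPM), GATD1-DT (26.4 TPM), BAIAP2-DT (22.4 TPM) and SLC12A2-DT (18.4 TPM). TMEM161B-DT (18.2 TPM), RAB30-DT (17.6 TPM), RNF32-DT (14.1 TPM), ATP6AP1-DT (13.6 TPM) and CRIM1-DT (13.0 TPM) completed the first 10. The lowest was TMED2-DT at 0.288 TPM. The median member was at 18.79% of the TPM of its named gene. TMED2-DT was at 0.133% of TMED2, a cargo receptor of early secretory vesicles, while 8 members exceeded their gene, among them FAM151B-DT (739%), ZNF8-DT (319%) and RNF32-DT (302%). The named genes of PKD2L2-DT and PRR15-DT averaged 0.143 and 0.165 TPM, did not pass the filter on low counts, and were left out of all tests of pairs.

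**Figure D1:**
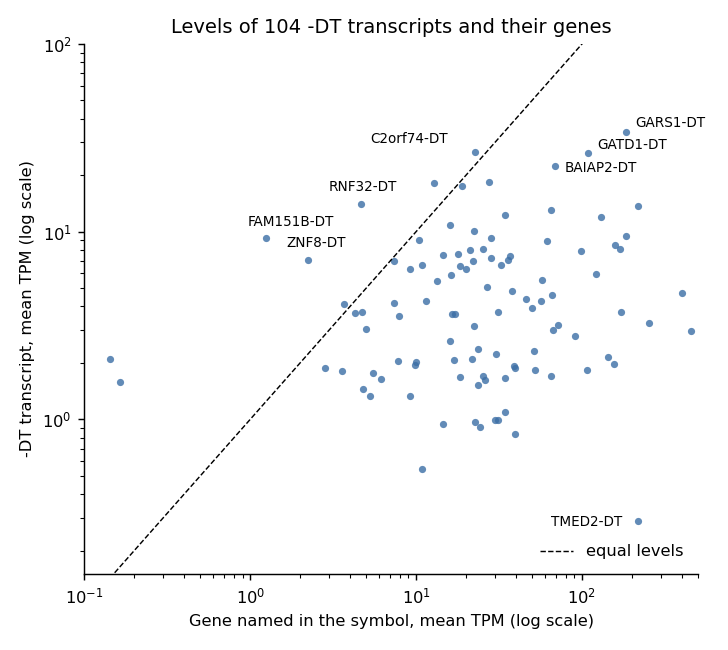
Mean TPM over 30 libraries of each -DT transcript (vertical, log scale) against that of the gene in its symbol (horizontal, log scale), 1 point per pair, with a dashed line at equal levels. Of 104 points, 96 lie below the line and 8 above it, and TMED2-DT lies lowest.

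All 104 members passed the filter on low counts, which kept 18424 genes. An F test across the 10 groups (edgeR, adjusted p under 0.05) called 48 members (46.2%) and 48 of the 102 named genes (47.1%), against 41% of all genes. The smallest adjusted p belonged to SAP30-DT (edgeR adjusted p = 1.63e-08), MIOS-DT (8.88e-07) and PRKACB-DT (5.44e-05). The group with the highest mean was PD-1/CD27 for 38 members, plain DSLB for 14 and DSLB-free for 12, and the group with the lowest mean was PD-1 for 30, plain DSLB for 16 and DSLB-free for 15. The summed TPM of the members was 652.3 ± 23.8 with PD-1/CD27, 629.4 ± 38.7 with PD-1/CD2, 619.9 ± 19.5 with PD-1/CD40L, 617.4 ± 9.63 with PD-1/ICOS, 612.8 ± 5.98 with PD-1/CTLA4, 580.5 ± 9.19 with PD-1/LAG3 and 570.3 ± 15.2 with PD-1/TIGIT, against 561.7 ± 26.6 with PD-1 alone, 594.7 ± 4.63 with plain DSLBs and 607.4 ± 18.02 without DSLBs (SD, n = 3 each). The sums of the PD-1 libraries were 533.6, 564.9 and 586.6 TPM, with replicate 1, which stood apart, as the lowest. All 3 lay under the plain DSLB and DSLB-free libraries, of which the lowest were at 591.2 and 593.5 TPM, and they overlapped those of PD-1/LAG3 and PD-1/TIGIT hybrids. In bulk RNA, fewer cells that express a gene and less RNA per cell cannot be told apart. In the following, values are TPM per library, and log2 fold changes, their standard errors (SE) and adjusted p-values are from edgeR's quasi-likelihood test on the counts, adjusted over all 18424 genes, with 0.05 as the threshold. The 7 comparisons with PD-1 hybrids share the same 3 PD-1 libraries.

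With CD27 beside PD-1, 19 members rose and none fell. Over all genes, 2.29% were called in this comparison, 2.05% higher and 0.233% lower. The median log2 fold change of the members was 0.22, with 75 of 104 above 0 (49.7% of all genes), against a median of 0.00 over all genes. The groups did not overlap, with PD-1/CD27 higher, for 46 members (13.5% of all genes), and with PD-1/CD27 lower for 3 (13.4%). MIOS-DT, named after a subunit of the GATOR2 complex that acts on mTORC1, lies on chromosome 7 from 7552462 to 7566996. It was at 5.89, 3.94 and 6.07 TPM in PD-1/CD27 hybrids, against 2.14, 2.87 and 3.52 TPM in PD-1 hybrids. All PD-1/CD27 libraries were above all PD-1 libraries (log2 fold change 1.15, SE 0.174, edgeR adjusted p = 0.000865), and the call held without each of the 6 libraries in turn. MIOS itself was at 31.5, 32.0 and 33.4 TPM with PD-1/CD27 and at 34.6, 31.3 and 32.0 TPM with PD-1, with a log2 fold change of -0.06 (edgeR adjusted p = 0.641). MIOS-DT shares 122 exon bases with MIOS.

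ZKSCAN2-DT, a single-exon transcript on chromosome 16 from 25257952 to 25261066 beside a zinc finger gene, was at 2.62, 1.92 and 2.54 TPM in PD-1/CD27 hybrids, against 0.53, 1.16 and 1.35 TPM in PD-1 hybrids. PD-1 replicate 1 was the lowest, and the groups did not overlap. The log2 fold change was 1.19 (SE 0.199, edgeR adjusted p = 0.00221), and 0.90 (adjusted p = 0.0228) without the 4 libraries that stood apart. CAPN10-DT, beside a calpain protease gene on chromosome 2, was at 2.57, 1.78 and 2.08 TPM with PD-1/CD27, against 0.86, 1.18 and 1.22 TPM with PD-1. These groups did not overlap either (log2 fold change 0.94, SE 0.152, edgeR adjusted p = 0.00184). PAXIP1-DT, beside the gene of a DNA damage response and chromatin protein, was at 8.53, 7.74 and 7.82 TPM with PD-1/CD27, against 3.36, 4.54 and 4.44 TPM with PD-1. Its lowest PD-1/CD27 library was well above its highest PD-1 library (log2 fold change 0.92, SE 0.160, edgeR adjusted p = 0.00324). ZKSCAN2, CAPN10 and PAXIP1 had log2 fold changes of -0.11, 0.02 and 0.16, none past the threshold.

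The largest rise with CD27 was that of TMED2-DT, at 0.42, 0.35 and 0.49 TPM in PD-1/CD27 hybrids, against 0.07, 0.22 and 0.20 TPM in PD-1 hybrids (log2 fold change 1.34, edgeR adjusted p = 0.0139). The level was low throughout, the groups did not overlap, and 284 exon bases are shared with the far more abundant TMED2. TRMT61A-DT, beside the gene of a tRNA methyltransferase subunit, had 0.74, 0.65 and 0.87 TPM with PD-1/CD27, against 0.23, 0.35 and 0.46 TPM with PD-1 (log2 fold change 1.10, adjusted p = 0.0101). GOT1-DT, beside the gene of cytosolic aspartate aminotransferase, had 1.69, 1.35 and 1.79 TPM, against 0.47, 0.81 and 0.98 TPM with PD-1 (log2 fold change 1.07, adjusted p = 0.0233). The rises of ZNRD2-DT (1.03), MIF4GD-DT (0.98), C2orf49-DT (0.96) and ANKRD42-DT (0.96) completed the 10 largest. MIF4GD-DT is named after a protein that takes part in the translation of histone mRNAs. The other 9 called, among them PAXIP1-DT, GARS1-DT, SAP30-DT and TMEM161B-DT, had log2 fold changes between 0.37 and 0.92. Without PD-1 replicate 1 the count was 4, without PD-1 replicate 2 it was 10, without PD-1/CD27 replicate 1 it was 6, without PD-1/CD27 replicate 3 it was 7, and without the 4 libraries that stood apart it was 5. ZKSCAN2-DT, MIOS-DT, MIF4GD-DT and CAPN10-DT were called in each of the 6 fits with 1 library left out.

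With CD2 beside PD-1, 8 members rose and none fell, against 0.733% of all genes higher and 0.499% lower. The median over the members was 0.19, with 74 above 0 (48.5% of all genes), and -0.01 over all genes. PD-1/CD2 was higher with no overlap for 36 members (8.11% of all genes) and lower for 2 (8.1%). The largest changes were those of TMED2-DT (log2 fold change 1.16, SE 0.298, edgeR adjusted p = 0.0496) and ZKSCAN2-DT (1.04, SE 0.199, adjusted p = 0.0117). TMED2-DT was at 0.38, 0.20 and 0.54 TPM with PD-1/CD2, against 0.07, 0.22 and 0.20 TPM with PD-1, so its groups overlapped. ZKSCAN2-DT was at 1.84, 1.75 and 2.67 TPM in PD-1/CD2 hybrids, and none of these reached down to the PD-1 values given above.

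MIOS-DT was at 4.78, 3.61 and 4.33 TPM in PD-1/CD2 hybrids, just above the highest PD-1 library at 3.52 TPM (log2 fold change 0.88, SE 0.174, edgeR adjusted p = 0.0131). PAXIP1-DT was at 7.76, 6.47 and 7.65 TPM with PD-1/CD2, clear of the highest PD-1 library at 4.54 TPM (0.82, SE 0.159, adjusted p = 0.0131). CAPN10-DT (0.81, adjusted p = 0.0114), MIF4GD-DT (0.69, adjusted p = 0.0312) and RAB30-DT (0.51, adjusted p = 0.0279), beside the gene of a Golgi GTPase, also passed. All 8 calls were lost without PD-1 replicate 1 and without PD-1/CD2 replicate 3, and 2 calls were made without PD-1 replicate 2. Without the 4 libraries that stood apart the count was 6, and on the 6 libraries compared edgeR called 1.

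**Figure D2:**
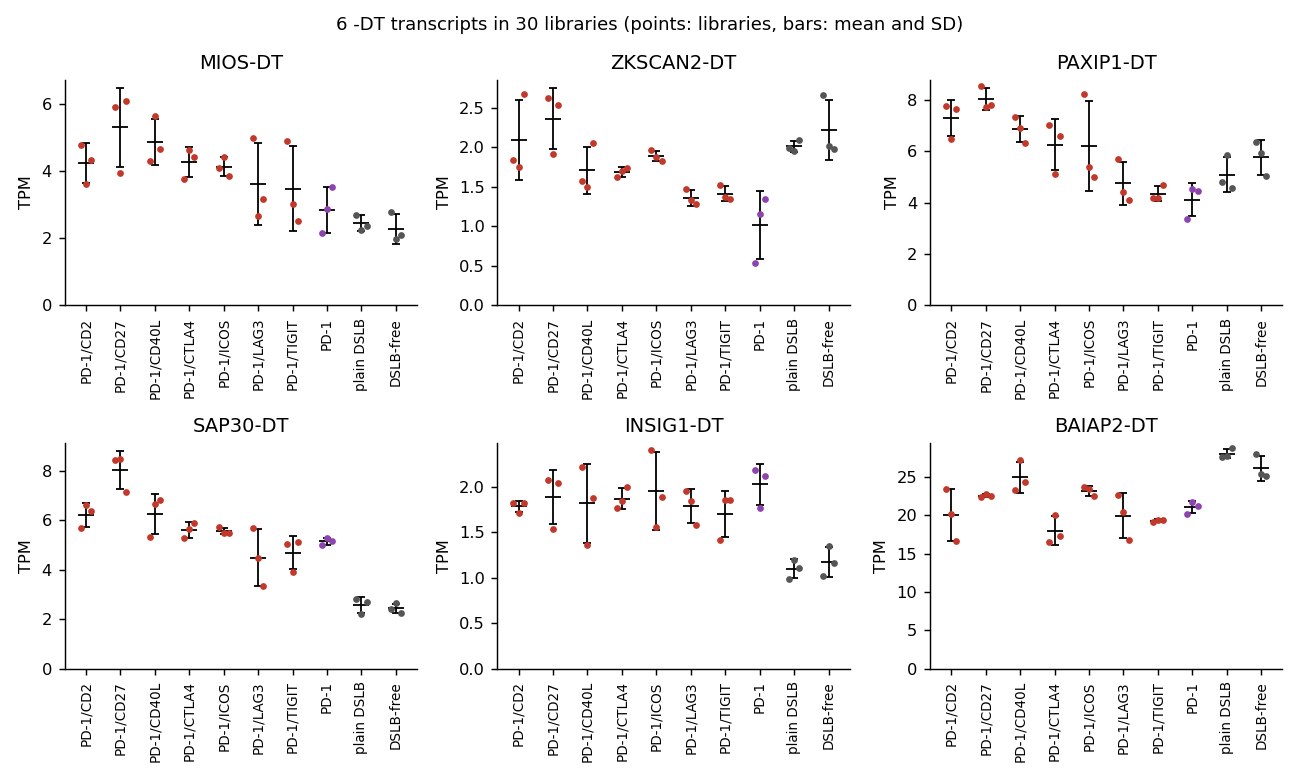
TPM of 6 members by group, 1 point per library with the mean and SD of 3 libraries as bars, each panel on its own linear axis from 0. PD-1/CD27 libraries of MIOS-DT, ZKSCAN2-DT and PAXIP1-DT lie above all PD-1 libraries, SAP30-DT and INSIG1-DT are higher in the groups with PD-1 than in plain DSLB hybrids and DSLB-free tumoroids, and BAIAP2-DT is highest in plain DSLB hybrids.

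With CTLA4 beside PD-1, 1 member rose and none fell, against 0.0434% of all genes higher. It was MIOS-DT, at 3.77, 4.62 and 4.40 TPM in PD-1/CTLA4 hybrids, all above the PD-1 libraries (log2 fold change 1.04, SE 0.174, edgeR adjusted p = 0.0129). The call was lost without the first PD-1/CTLA4 library and without PD-1 replicate 1, while 5 members were called without PD-1/CTLA4 replicate 2 and 7 without the 4 libraries that stood apart. The median over the members was 0.18, with 77 above 0 (50.2% of all genes), and PD-1/CTLA4 was higher without overlap for 30 (9.21% of all genes) and lower for 1 (8.6%).

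With CD40L, ICOS, LAG3 or TIGIT beside PD-1, edgeR called no member, and over all genes it called 0.0109% higher for CD40L and 0% for the other ligands. At an unadjusted p under 0.05 there were 24 members for CD40L, 24 for ICOS, 9 for LAG3 and 4 for TIGIT. The shares of all genes were 11.3%, 10.2%, 5.71% and 3.7%, so that the TIGIT count was at the background. DESeq2 called 6, 1, 0 and 0 members, and no share of all genes is given for it. The medians were 0.17 for CD40L, 0.09 for ICOS, 0.09 for LAG3 and 0.06 for TIGIT, with 80, 70, 73 and 69 members above 0 (51.2%, 50.4%, 51.7% and 50.1% of all genes), and the medians over all genes were between 0.00 and 0.01. The groups were apart, with the second ligand higher, for 24 members with CD40L (8.9% of all genes), 25 with ICOS (12.6%), 10 with LAG3 (6.14%) and 9 with TIGIT (6.25%), and lower for 1 (11%), 7 (14.1%), 3 (5.89%) and 4 (6.77%). MIOS-DT was at 4.29, 5.62 and 4.65 TPM with PD-1/CD40L, all above the PD-1 libraries, and at 4.98, 2.67 and 3.15 TPM with PD-1/LAG3, which overlapped them. Its log2 fold changes were 0.88 for CD40L (edgeR adjusted p = 0.0673), 0.67 for ICOS (adjusted p = 0.380), 0.19 for LAG3 (adjusted p = 0.852) and 0.41 for TIGIT (adjusted p = 1.00). A p that misses the threshold does not show that the levels were alike.

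**Figure D3:**
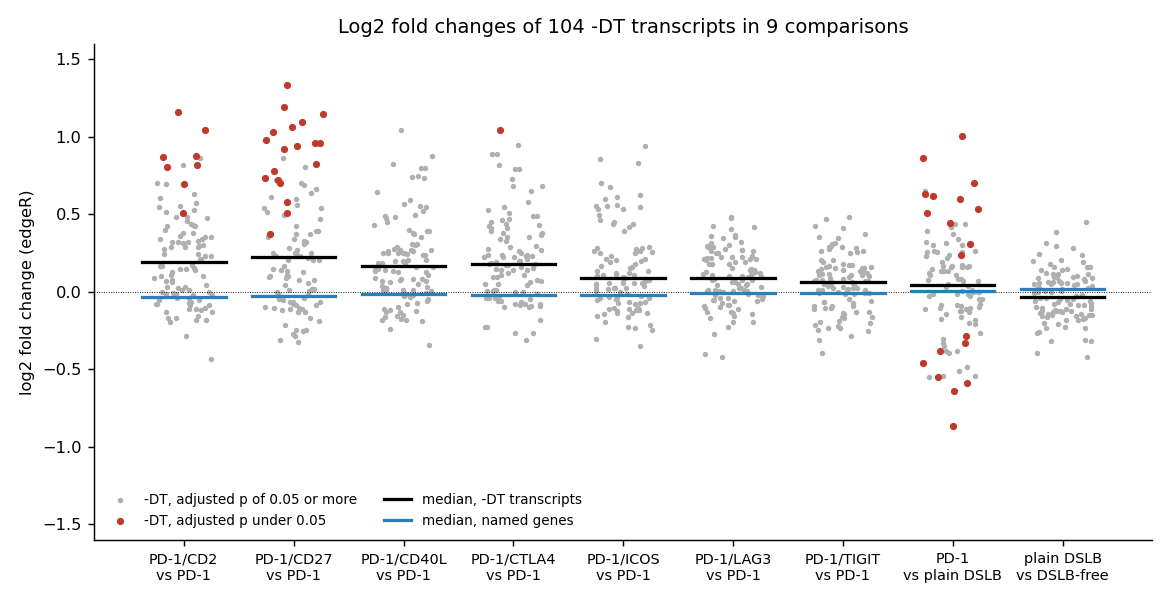
Log2 fold changes from edgeR of the 104 members in 9 comparisons, 1 point per member, red where the adjusted p was under 0.05. Black lines are the medians of the members and blue lines those of 102 named genes, and the black line lies between 0.06 and 0.22 in the 7 comparisons with PD-1 hybrids while the blue line lies near 0.

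The genes named in the symbols were called about as seldom as all genes in the same comparisons. In the 7 comparisons with PD-1, the medians of the 102 named genes were between -0.03 and 0.00. With CD27, 2 (1.96%) were called higher, near the 2.05% of all genes, and none was called in any other of these comparisons. With CD2, 0.733% of all genes were called higher. Other noncoding classes had medians on the same side as the members. The 553 antisense genes with -AS in the symbol had medians of 0.18 with CD27, 0.15 with CD2, 0.15 with CTLA4, 0.14 with CD40L, 0.10 with ICOS, 0.05 with LAG3 and 0.03 with TIGIT, and 31 of them (5.61%) were called higher with CD27 and 12 (2.17%) with CD2. The 26 SNHG genes, which host small nucleolar RNAs, had medians of 0.26 with CD27 and 0.20 with CD2, with 3 and 2 called higher (11.5% and 7.69%). The nuclear lncRNA MALAT1 was at 1101 ± 283 TPM with PD-1/CD27, 1222 ± 317 with PD-1/CD2, 1382 ± 201 with PD-1/CTLA4, 1041 ± 455 with PD-1/CD40L, 996.7 ± 226 with PD-1/TIGIT, 884.5 ± 167 with PD-1/LAG3 and 853 ± 92.2 with PD-1/ICOS, against 623 ± 49 with PD-1 (SD, n = 3 each). In plain DSLB hybrids MALAT1 was at 550.3 ± 33.9 TPM and in DSLB-free tumoroids at 768 ± 72.7 TPM. Mitochondrial genes took a mean share of counts of 5.97% with PD-1/CD27, 5.08% with PD-1/CD2 and 3.57% to 5.70% with the other second ligands. The share was 3.54% with PD-1, where replicate 1 had the lowest at 2.66%, 4.90% with plain DSLBs and 4.33% without DSLBs. The part of these values in the rise of the members was not tested.

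Within the members, single-exon transcripts and those with several exons can be set side by side. Over all genes, 2.05% were called higher with CD27 and 0.733% with CD2. Of 26 single-exon members 9 were called higher with CD27 and 5 with CD2, with medians of 0.36 and 0.36, and of 78 with several exons 10 and 3 were called, with medians of 0.16 and 0.12. Of the 53 that share no exon bases with another gene, 9 were called with CD27 and 4 with CD2, and of the 51 that do, 10 and 4. By the role of the named gene, the calls with CD27 were 5 of 13 members beside genes of RNA processing and translation, 4 of 20 beside genes of transcription and chromatin, 2 of 10 beside genes of signalling and stress, and 2 of 16 beside genes of metabolism and transport. There was 1 of 19 beside genes of membrane traffic and cytoskeleton, 1 of 15 beside genes of the ubiquitin system and proteolysis, and 4 of 11 beside genes not assigned. None of these differences was tested, and a single call does not give a rate for a class.

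With PD-1 against plain DSLBs, 11 members rose and 8 fell. These shares were near those of all genes, of which 11.3% were higher and 10.7% lower, and the member median was 0.04. INSIG1-DT, on chromosome 7 beside the gene of an endoplasmic reticulum protein that restrains the processing of sterol regulatory factors, was at 2.19, 1.77 and 2.12 TPM in PD-1 hybrids, against 0.99, 1.20 and 1.11 TPM in plain DSLB hybrids. The groups were apart (log2 fold change 1.01, SE 0.195, edgeR adjusted p = 0.000433). INSIG1 was at 71.1, 65.4 and 66.1 TPM, against 58.6, 53.6 and 61.8 TPM, and rose by 0.34 (adjusted p = 0.00475). SAP30-DT, beside the gene of a Sin3 histone deacetylase subunit, was at 5.01, 5.29 and 5.16 TPM in PD-1 hybrids, against 2.81, 2.20 and 2.71 TPM in plain DSLB hybrids. All PD-1 values were close together and well above the plain ones (log2 fold change 0.87, SE 0.168, edgeR adjusted p = 0.000424), and SAP30 rose by 0.44 (adjusted p = 0.00392). Without the 4 libraries that stood apart, the log2 fold changes were 0.93 (adjusted p = 0.00288) for INSIG1-DT and 0.95 (adjusted p = 0.000384) for SAP30-DT. SAP30-DT shares 128 exon bases with SAP30, and INSIG1-DT shares none with any gene. The 4 fibroblast markers, nearly all COL1A1, summed to 185 to 225 TPM in these PD-1 libraries and 300 to 340 TPM in the plain ones, and their part in the result was not tested.

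The other members higher with PD-1 were PRKACB-DT (0.70), beside the gene of a catalytic subunit of protein kinase A, CNN3-DT (0.63), EDRF1-DT (0.62), ZFAND2A-DT (0.60), PRDM16-DT (0.53), TBC1D22A-DT (0.51), ZMPSTE24-DT (0.44), beside the gene of the prelamin A protease, ZNF8-DT (0.31) and C2orf74-DT (0.24). EDRF1-DT was at 9.43, 7.61 and 8.41 TPM with PD-1, against 6.06, 4.09 and 6.71 TPM with plain DSLBs. Its groups did not overlap, and EDRF1 fell by 0.32 (edgeR adjusted p = 0.0155).

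Among the 8 members lower with PD-1 were ZKSCAN2-DT, CAPN10-DT, USP34-DT, RAB30-DT, ZNF584-DT and BAIAP2-DT. ZKSCAN2-DT was at 0.53, 1.16 and 1.35 TPM in PD-1 hybrids, against 1.99, 1.95 and 2.09 TPM in plain DSLB hybrids, and all PD-1 libraries lay below (log2 fold change -0.87, SE 0.202, edgeR adjusted p = 0.00259). Its levels with PD-1/CD27 and PD-1/CD2 overlapped those of plain DSLB hybrids, and the same held for CAPN10-DT (-0.64, adjusted p = 0.00360), at 1.88, 1.93 and 1.74 TPM with plain DSLBs. RAB30-DT was at 14.6, 14.7 and 15.2 TPM with PD-1, against 20.01, 22.2 and 20.8 TPM with plain DSLBs (-0.46, adjusted p = 0.00650). BAIAP2-DT, the member with the highest mean count (2737), lies beside the gene of the cytoskeletal adaptor IRSp53 and was at 20.2, 21.8 and 21.3 TPM with PD-1, against 27.6, 27.8 and 28.8 TPM with plain DSLBs. The groups were far apart for their spread (-0.28, SE 0.0761, edgeR adjusted p = 0.00830), while BAIAP2 rose by 0.32 (adjusted p = 0.000863). The call of EMSY-DT, also lower, was lost in each fit with 1 library left out. In all, 9 calls were made without PD-1 replicate 1, 12 without plain DSLB replicate 1, 12 without plain DSLB replicate 3 and 15 without the 4 libraries that stood apart.

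The hybrids with a second ligand were also set against plain DSLB hybrids, and these comparisons share the 3 plain libraries. Members called higher and lower numbered 34 and 2 with PD-1/CD27 (12.4% and 11.4% of all genes), 29 and 2 with PD-1/CD2 (14.1% and 15.4%), 27 and 1 with PD-1/CTLA4 (17% and 17.2%), and 23 and 0 with PD-1/CD40L (13.2% and 12.3%). They were 16 and 1 with PD-1/ICOS (9.81% and 9.8%), 14 and 3 with PD-1/LAG3 (16.2% and 14.1%), and 10 and 3 with PD-1/TIGIT (10.9% and 11.6%). The medians were 0.30 with PD-1/CD27, 0.26 with PD-1/CD2, 0.27 with PD-1/CTLA4, 0.23 with PD-1/CD40L, 0.13 with PD-1/ICOS, 0.15 with PD-1/LAG3 and 0.09 with PD-1/TIGIT. SAP30-DT had log2 fold changes over plain DSLBs of 1.59 with PD-1/CD27, 1.30 with PD-1/CD2, 1.24 with PD-1/CD40L, 1.10 with PD-1/CTLA4, 1.10 with PD-1/ICOS, 0.79 with PD-1/LAG3 and 0.80 with PD-1/TIGIT, with edgeR adjusted p between 6.43e-08 and 0.00108. INSIG1-DT stayed between 0.76 and 0.94 in the same comparisons. BAIAP2-DT was at -0.47 with PD-1/CTLA4, -0.41 with PD-1/TIGIT and -0.04 with PD-1/CD40L, where its libraries had 23.4, 27.3 and 24.4 TPM (edgeR adjusted p = 0.740). MIOS-DT was at 1.15 with PD-1/CD27 and 0.01 with PD-1 alone.

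No member was called for the droplets themselves. In plain DSLB hybrids against DSLB-free tumoroids edgeR called no member, against 0.0109% of all genes higher, and DESeq2 called none. At an unadjusted p under 0.05 there were 4 members, a smaller share than the 6.1% of all genes. The member median was -0.03. SAP30-DT, for example, was at 2.81, 2.20 and 2.71 TPM with plain DSLBs, against 2.41, 2.64 and 2.25 TPM without DSLBs, and the groups overlapped.

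The ratio of a member to its named gene was tested with limma on the difference of their log2 CPM in each library, adjusted over all 787 pairs of a noncoding gene and the gene in its symbol, of which 102 were -DT pairs. With CD27 beside PD-1 the ratio was higher for 21 -DT pairs and lower for none (9.4% and 0.381% of all pairs), with CD2 for 7 and none (4.7% higher), with CTLA4 for 6 and none (2.67%), with ICOS for 2 and none (0.635%) and with CD40L for 1 and none (0.508%). With LAG3 and TIGIT limma called no ratio, and 4 and 6 were at an unadjusted p under 0.05. The largest differences with CD27 were those of TMED2-DT (1.48, SE 0.327, limma adjusted p = 0.00522), ZKSCAN2-DT (1.37, adjusted p = 0.00106), MIOS-DT (1.23, adjusted p = 0.000399), GOT1-DT (1.22, adjusted p = 0.00714), with TRMT61A-DT and ZNRD2-DT next (1.18 and adjusted p = 0.00522 each). In these 6 pairs the member was higher and the named gene had log2 fold changes between -0.14 and -0.06. The MIOS-DT to MIOS ratio was also higher with CD40L (1.10, limma adjusted p = 0.00690). Without PD-1 replicate 1 the counts were 6 with CD27 and 0 with CD2, and without the 4 libraries that stood apart they were 9 and 2.

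In PD-1 against plain DSLB hybrids, 8 ratios were higher and 8 lower (6.73% and 4.7% of all pairs), and here several named genes moved. HK2, the hexokinase that starts glycolysis, rose by 1.20 (edgeR adjusted p = 1.13e-08) to 8.16, 10.2 and 8.39 TPM in PD-1 hybrids, against 4.40, 3.45 and 5.04 TPM in plain DSLB hybrids. HK2-DT was at 2.25, 2.56 and 2.04 TPM, against 2.32, 1.47 and 1.75 TPM, with overlap, and the ratio fell by 0.76 (limma adjusted p = 0.0233). GARS1 rose by 0.54 (edgeR adjusted p = 8.31e-06) while GARS1-DT was at -0.17 (adjusted p = 0.586). SLC12A2, a sodium, potassium and chloride cotransporter, fell by 0.52 (edgeR adjusted p = 0.00118) while SLC12A2-DT was at 0.00 (adjusted p = 0.990). The ratio of BAIAP2-DT to BAIAP2 fell by 0.60 (limma adjusted p = 0.000522), and that of EDRF1-DT to EDRF1 rose by 0.94 (limma adjusted p = 0.00247). Without plain DSLB replicate 1 limma called 4 ratios, without PD-1 replicate 1 it called 6 and without the 4 libraries that stood apart 7.

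**Figure D4:**
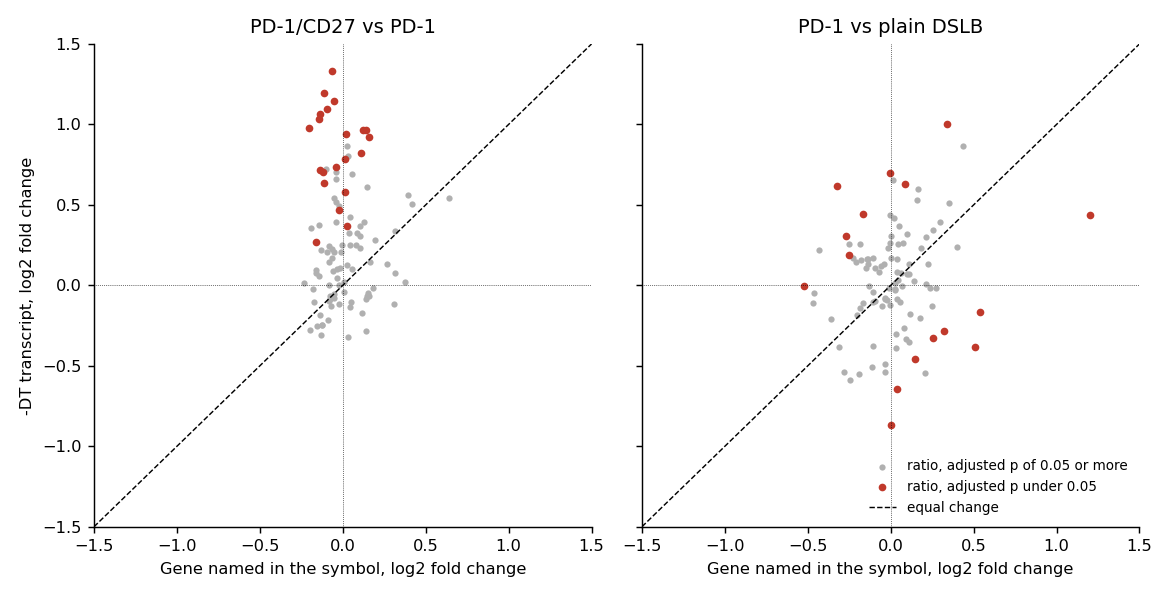
Log2 fold change of each of 102 members (vertical) against that of the gene in its symbol (horizontal), in PD-1/CD27 against PD-1 hybrids and in PD-1 against plain DSLB hybrids, red where the limma test of the ratio had an adjusted p under 0.05. In the first panel the red points lie above the dashed line of equal change, and in the second they lie on both sides, with HK2 farthest to the right at 1.20.

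Over the 30 libraries, members and named genes were correlated about as often negatively as positively. Pearson's r of log2 CPM had a median of 0.005 over 102 pairs (quartiles -0.268 and 0.216), with 52 above 0. By permutation with 100000 resamples and Benjamini-Hochberg adjustment over the 102 pairs, 12 were positive and 5 negative at an adjusted p under 0.05. After removal of the group means the median was 0.00, with 51 above 0. The members varied more than their genes, with a median SD on the log2 scale of 0.236 against 0.132. Their median mean count was 116.2, with 43 of 104 under 100, and counting noise is larger at low counts. Its part in these SDs and in the correlations was not tested. Among all genes tested, the named gene was never the one most correlated with its member, and for 1 member it was within the first 100.

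GATD1-DT and GATD1 had the highest correlation (r = 0.775, rho = 0.565, permutation adjusted p = 0.00051 and 0.0211), with r = 0.747 without the 2 libraries farthest from the median and 0.812 within groups. GATD1-DT was at 24.5, 25.2 and 35.6 TPM with PD-1/CD2 and at 31.2, 34.6 and 28.0 TPM without DSLBs, where GATD1 was at its highest with 130.7, 165.4 and 128.3 TPM. INSIG1-DT and INSIG1 had r = 0.738 and rho = 0.542 (permutation adjusted p = 0.00051 and 0.0223) and 0.731 without the 2 libraries, but 0.052 within groups, so that the relation lay between the groups. ZDHHC12-DT (r = 0.701), UBL7-DT (r = 0.686) and TMEM161B-DT (r = 0.682) followed, with within-group values of 0.687, 0.435 and 0.506. The lowest were ZNF8-DT (r = -0.653, rho = -0.674, permutation adjusted p = 0.0016 and 0.0051, within groups -0.388), EDRF1-DT (r = -0.535), NUP50-DT (r = -0.504), KLHL7-DT (r = -0.502) and EOLA2-DT (r = -0.489). Within groups EDRF1-DT was at -0.221, KLHL7-DT at -0.5 and EOLA2-DT at -0.393. NUP50-DT was at -0.015 within groups, so that its relation lay between the groups.

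**Figure D5:**
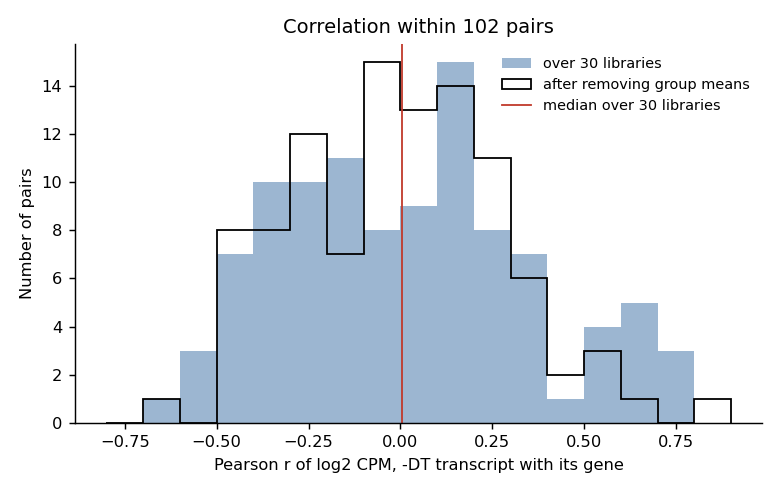
Number of pairs (vertical) by Pearson's r of log2 CPM between a member and the gene in its symbol (horizontal), filled for all 30 libraries and outlined after removal of the group means, with the median of 0.005 as a red line. Both distributions centre on 0 and reach from about -0.7 to 0.8.

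The machinery that ends or degrades upstream transcripts was measured in the same libraries. Of 48 genes of nuclear RNA surveillance and early termination, which include exosome, NEXT, PAXT and Integrator subunits, 1 was called higher with CD27, a share near the 2.05% of all genes, and none in the other comparisons with PD-1 hybrids, with none lower. In PD-1 against plain DSLB hybrids none was called higher and 6 lower (11.3% and 10.7% of all genes). Of 18 genes of promoter pausing and its release, such as the NELF subunits and CDK9, none was called in the comparisons with PD-1 hybrids. With PD-1 against plain DSLBs 2 were lower (11.1%, against 10.7% of all genes). With a second ligand against plain DSLBs, 8 to 10 surveillance genes were lower (16.7% to 20.8%) and 0 to 2 higher. Of the pausing genes, 2 to 6 were lower there (11.1% to 33.3%) and 0 to 2 higher. Over all genes, 9.8% to 17.2% were lower and 9.81% to 17% higher in these comparisons. Whether these levels have a part in those of the members was not tested.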

How the data were processed

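Total RNA of 30 Panc-1 tumoroid libraries was made into directional, single-end libraries. Per the labels and methods, the authors trimmed reads with Trim Galore 0.3.3 and cutadapt, checked them with FastQC 0.11.2, aligned them to hg38 with STAR, used SAMtools 1.3.1, and quantified genes with RSEM. The deposited files hold expected counts, which need not be whole, TPM and effective length per gene. Not given in the sources used here are the strand option and the annotation release.

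Expected counts were rounded to whole numbers. Gene IDs were matched to symbols and GENCODE release 44 coordinates on GRCh38 for 56321 of 60483 records. Genes were filtered with filterByExpr over all groups, scaled by TMM and fitted in a single edgeR 4.0.16 quasi-likelihood model of the 30 libraries (R 4.3.3), with 18424 genes tested, Benjamini-Hochberg adjustment and a threshold of 0.05. The biological coefficient of variation was 0.0942, and summed counts of 21.9 to 60.5 M per library set the precision. Ratios used limma 3.58.1 on differences of log2 CPM with a prior count of 2, and correlations used permutation tests (Python 3.11.15, scipy 1.17.1). Procedures were tested on simulated data. DESeq2 1.42.0, no filter, a mean count of 100, a replicate block, other references and leaving out libraries were alternatives.

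Members and lists were chosen with earlier results of these data known. Named are up to 10 members each way past the test per comparison, the 10 highest by TPM, those next to the count threshold, the smallest F test p-values, up to 5 ratios each way past the test, and the 5 highest and 5 lowest correlations. Roles of named genes were assigned by hand from general knowledge. Promoter sequences are from RefSeq, and 20 members were not matched there. P-values of the comparisons between groups measure the spread between parallel replicates of 1 cell line, while those of the correlations ignore the groups. Results on some items are not reported here.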

Additional observations from a re-analysis of the deposited data

How the results depend on the processing

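Calls against PD-1 hybrids depended on few libraries. Of 250 counts of calls under an alternative, 191 stayed within 1.5 times the value given and 59 did not, 34 of these on leaving out 1 library, and the cause was not tested. Of 469 alternatives for 37 results on single members, 356 kept their side of the threshold, 113 lost the call and 0 reversed.

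Leaving out 1 library gave 0 to 9 members called with CD2, 4 to 21 with CD27, 0 to 1 with CD40L (1 without PD-1 replicate 3), 0 to 5 with CTLA4, and 9 to 18 for PD-1 against plain DSLBs. Ratios called were then 0 to 13 with CD2 (0 without PD-1 replicate 1 or PD-1/CD2 replicate 3, 13 without PD-1 replicate 3), 6 to 22 with CD27 (10 without PD-1/CD27 replicate 1, 12 without its replicate 3), 0 to 5 with CD40L (0 without PD-1 replicate 1, 5 without PD-1 replicate 3), and 1 to 9 with CTLA4 (1 without PD-1/CTLA4 replicate 1, its replicate 3 or PD-1 replicate 1). They were 0 to 2 with ICOS (0 without PD-1 replicate 1 or 2 or any ICOS library) and 4 to 11 for PD-1 against plain DSLBs (9 without plain DSLB replicate 2, 10 without PD-1 replicate 2).

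On the 6 libraries compared, edgeR called 1 member with CD2 and 0 with CTLA4. DESeq2 called 13 with CD2, 6 with CD40L, 6 with CTLA4 and 1 with ICOS. Without a filter on low counts, edgeR called 9 with CD40L, 13 with CTLA4 and 9 with ICOS. Without the 4 libraries that stood apart it called 5 with CD27 and 7 with CTLA4, and limma called 2 ratios with CD2, 9 with CD27, 0 with CD40L, 3 with CTLA4, 0 with ICOS and 7 for PD-1 against plain DSLBs. With a mean count of at least 100, limma called 5 ratios with CD40L. For these alternatives, and for the fits with 1 library left out, no share of all genes is given beside the counts. A changed count of members thus cannot be told apart from a change over all genes. With plain DSLB hybrids as the reference, 31 members were called with CD2, 36 with CD27, 23 with CD40L, 28 with CTLA4, 17 with ICOS, 17 with LAG3 and 13 with TIGIT. Over all genes, the shares called were 29.6% with CD2, 23.8% with CD27, 25.5% with CD40L, 34.2% with CTLA4, 19.6% with ICOS, 30.3% with LAG3 and 22.5% with TIGIT. As shares of the 104 members, the count with CD27 was above that of all genes, that with CD2 near it and the others below it.

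The study made its conditions in parallel biological replicates, and whether the replicate numbers follow these sets is not given. Deviations of same-numbered libraries from their group means correlated at -0.135 to 0.132. Such weak correlations cannot show that the libraries are unpaired. The main model left the replicate number out. With the replicate number as a block, 7 members were called with CD2, 19 with CD27, 1 with CTLA4, 0 with each of CD40L, ICOS, LAG3 and TIGIT, 19 for PD-1 against plain DSLBs, 0 for plain DSLBs against DSLB-free tumoroids and 50 by the F test. Ratios called with the block were 8 with CD2, 21 with CD27, 1 with CD40L, 7 with CTLA4, 2 with ICOS and 15 for PD-1 against plain DSLBs. Low counts limit the least abundant members most.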

Other observations

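The -DT genes under the mean count of 50 were not described above. Of these, 167 passed the filter on low counts. Against PD-1 hybrids edgeR called 4 of them higher with CD27 and 2 with CD2 (2.05% and 0.733% of all genes, so that the CD27 share was near the background), none lower, and none with CD40L, CTLA4, ICOS, LAG3 or TIGIT. Their median log2 fold changes were 0.20 with CD27, 0.19 with CD2, 0.20 with CTLA4, 0.17 with CD40L, 0.12 with ICOS, 0.05 with LAG3 and 0.04 with TIGIT. In PD-1 against plain DSLB hybrids 4 were higher and 3 lower, smaller shares than the 11.3% and 10.7% of all genes, with a median of 0.10.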
